A study of Homo sapiens with 6 samples.

Results

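The genes described here are the parts of the WNT pathway in Y79 cells: the secreted WNT proteins, the machinery that exports them, their receptors, their extracellular inhibitors and enhancers, and the intracellular relay from Dishevelled to the TCF/LEF factors and their corepressors. They were taken by a list of gene symbols and number 58 of the 17013 genes in the deposited table. Y79 is an established human retinoblastoma line. All 6 libraries came from that line and were made from poly(A)-selected RNA. In 3 of them the cells carried a control shRNA and were labelled MYCN wild-type, and in the other 3 they carried an shRNA that targets MYCN, which encodes a growth-promoting MYC protein, and were labelled as MYCN knockdown. According to the series text the 3 libraries of each group are independent biological replicates. All 6 carry the same batch label. How many hairpins were used, and their sequences, is not given in the sources used here, so p-values measure the spread between libraries and not between hairpins.

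WNT proteins are lipid-modified signals that act over short distances. The enzyme PORCN adds the lipid and the carrier WLS brings the ligand to the cell surface. On the receiving cell a ligand joins a Frizzled receptor (FZD) to the coreceptor LRP5 or LRP6, and Dishevelled (DVL) then disables a complex of AXIN, APC and the kinase GSK3B that otherwise marks β-catenin (CTNNB1) for destruction. Stabilised β-catenin enters the nucleus and binds TCF/LEF factors, which without it recruit Groucho corepressors of the TLE family and silence the same targets. In the developing eye this pathway favours the pigment epithelium and the peripheral retina over the neural retina, and other ligand and receptor combinations orient cells in the plane of the tissue without β-catenin.

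Levels are given as CPM, the deposited estimated counts normalised to a common sequencing depth. Each library total was scaled by the trimmed mean of M-values (TMM), a factor that assumes most genes to be equal between libraries. Fold changes are log2 values of MYCN hairpin over control hairpin from edgeR's quasi-likelihood test. A gene is called higher or lower where its p, adjusted by the Benjamini-Hochberg method over the 12819 genes with enough counts to test, was under 0.05. Libraries held 15490263 to 16078416 counts. MYCN itself stood at 3045.8, 3127.9 and 2875.8 CPM with the control hairpin and at 2413.4, 2283.8 and 2195.2 with the MYCN hairpin, so the groups followed their labels and the transcript stayed abundant (log2 fold change -0.39, SE 0.043, edgeR adjusted p = 8.0e-11). Most of the transcriptome moved with it: 38.0% of tested genes were called higher and 37.9% lower, 75.8% in all, and 14.5% were called and differed at least 2-fold. The 3 libraries of one group did not overlap the 3 of the other for 76.8% of genes. Scaling by library size alone moved the median of all tested genes from 0.005 to 0.186, and 6597 genes were then called higher and 3348 lower, so differences under about that size depend on the scaling. Before scaling MYCN had 46397, 46904 and 41482 counts in the controls and 40559, 37864 and 35981 with the MYCN hairpin. Its groups were apart there too, but its fall is smaller without TMM. In bulk RNA, fewer cells of a type and less RNA per cell cannot be told apart.

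Markers of the labelled cell type were present in both groups but shifted. All 9 cone and photoreceptor markers were tested, with 8 called higher, 6 of them at least 2-fold, and OTX2 called lower. They summed to 1384.8, 1462 and 1412 CPM in the control libraries and to 1356, 1405 and 1395 with the MYCN hairpin, a sum carried by OTX2, which measured 1077.9 ± 26 and 679.5 ± 9.4 CPM (SD, n = 3). Among the others the fold ran from 1.28 for CRX to 12.5 for GUCA1A. Of 5 Müller glia markers 3 were tested, with VIM called higher, GLUL called lower and SLC1A3 not called. GLUL and VIM were abundant, but RLBP1 and GFAP had at most 2 counts in any library. Markers of pigment epithelium summed to 3.64 to 3.83 CPM in controls and to 11.3 to 13.3 with the MYCN hairpin (2 of 3 tested called higher), and those of fibroblasts to 2.22 to 2.67 and 5.06 to 6.43 (2 of 3 called higher). Blood and endothelial markers summed to 0.919 to 1.59 CPM across all libraries, with the single tested gene not called. These values moved alongside the differences below, and their part in them was not tested.

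Upstream sequence was matched for 43 members in the RefSeq promoter table (GRCh38.p14), and 5 stretches are shown, each within 250 bases before the transcription start. They are WNT9A, TCF7 and SFRP2, whose differences were among those with the smallest p, and the 2 members called higher whose window holds the E-box CACGTG, the hexamer that MYC family proteins bind with their partner MAX. Capitals mark CACGTG. Bases that lie in an annotated exon were left out, which shortens the stretches of SFRP2 and DVL2. The starts used for TCF7 and APC lie inside their GENCODE gene spans, and each of these genes has another start in the table.
WNT9A (chr1:227947933-227948182, minus strand): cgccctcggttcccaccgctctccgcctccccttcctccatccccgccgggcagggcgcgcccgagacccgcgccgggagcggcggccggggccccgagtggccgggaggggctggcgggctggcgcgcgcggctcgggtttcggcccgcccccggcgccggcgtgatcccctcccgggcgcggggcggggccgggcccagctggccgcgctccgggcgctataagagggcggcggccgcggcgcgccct
TCF7 (chr5:134123368-134123617, plus strand): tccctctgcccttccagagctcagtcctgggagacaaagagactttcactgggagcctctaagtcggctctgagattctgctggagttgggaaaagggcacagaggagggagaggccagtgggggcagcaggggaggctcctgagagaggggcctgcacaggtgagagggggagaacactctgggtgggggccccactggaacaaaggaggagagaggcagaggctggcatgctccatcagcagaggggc
SFRP2 (chr4:153789121-153789333, minus strand): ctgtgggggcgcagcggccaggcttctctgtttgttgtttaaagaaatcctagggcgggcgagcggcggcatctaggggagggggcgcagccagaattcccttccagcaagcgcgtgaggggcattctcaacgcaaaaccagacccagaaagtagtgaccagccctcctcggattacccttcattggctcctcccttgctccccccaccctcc
APC (chr5:112737635-112737884, plus strand): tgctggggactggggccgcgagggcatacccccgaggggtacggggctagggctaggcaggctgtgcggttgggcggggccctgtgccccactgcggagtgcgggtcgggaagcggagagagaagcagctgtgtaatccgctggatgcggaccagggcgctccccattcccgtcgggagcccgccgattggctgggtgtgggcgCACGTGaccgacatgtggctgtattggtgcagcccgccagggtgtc
DVL2 (chr17:7234546-7234767, minus strand): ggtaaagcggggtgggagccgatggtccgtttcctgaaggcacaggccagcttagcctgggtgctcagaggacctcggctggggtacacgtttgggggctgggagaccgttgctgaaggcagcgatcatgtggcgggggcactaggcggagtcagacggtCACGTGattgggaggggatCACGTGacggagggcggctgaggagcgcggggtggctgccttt
CACGTG, which reads the same on both strands, was found in a window of 3 of the 43 members (APC, DVL2 and TLE3), with a gene counted where any of its windows held it, against 6.35% of 35116 windows in the table and 11.4% of the 10352 tested genes with a window. The window of APC shown holds it once, 46 bases before the start, and the other window of APC, before the GENCODE start of the gene, does not hold it. The full window of DVL2 holds it at 90, 71 and 24 bases before the start, and the last of these lies in the exonic bases not shown. The match of TLE3 lies in a window whose 250 bases are all in annotated exons. Among members with a window it was present in 2 of 14 called higher, in 1 of 14 called lower and in 0 of 3 not called. The windows of WNT9A, TCF7 and SFRP2 do not hold these letters. The core CTTTGA, a sequence bound by TCF/LEF factors, was searched on both strands and its letters cannot overlap CACGTG. It was found in 4 of the 43 members (DKK1, PORCN, TLE4 and TLE5), against 11.2% of all windows and 10.8% of tested genes with a window. DKK1 was not tested. Among tested members with a window the core was present in 1 of 14 called higher, 2 of 14 called lower and 0 of 3 not called. The matches of DKK1 and PORCN lie in windows whose 250 bases are all in annotated exons. A match is a description of the letters in these windows and no evidence of binding.

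Of the 58 members 42 had enough counts to test, with 17 called higher, 21 called lower and 4 not called (FZD2, FZD5, LRP5 and WNT2B). The share called was 90.5%, beside 75.8% of all tested genes, and the median log2 fold change was -0.16, beside 0.005. That median depended on the processing. With library size scaling it was 0.017, beside 0.186 for all tested genes. Without the count filter it was 0.003 over 56 members, beside 0.02. At least a 2-fold difference was called for 10 members, which is 23.8% beside 14.5%, with 4 higher (RSPO1, WNT9A, TCF7 and WNT5A) and 6 lower (WNT3A, WNT10B, SFRP1, WNT11, PORCN and CTNNB1). The groups did not overlap for 37 of the 42, or 88.1% beside 76.8%. With library size scaling 19 members were called higher and 13 lower. The 16 untested members had few counts or none, and DKK1 and SFRP4 were at 0 in all 6 libraries. By direction, 40.5% of tested members were called higher and 50% lower, beside 38.0% and 37.9% of all tested genes. Each family below except the export genes, the antagonists and the R-spondin group held members called in both directions. Calls among all tested genes were also split about evenly between the directions, so mixed directions are not particular to this set.

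**Figure D1:**
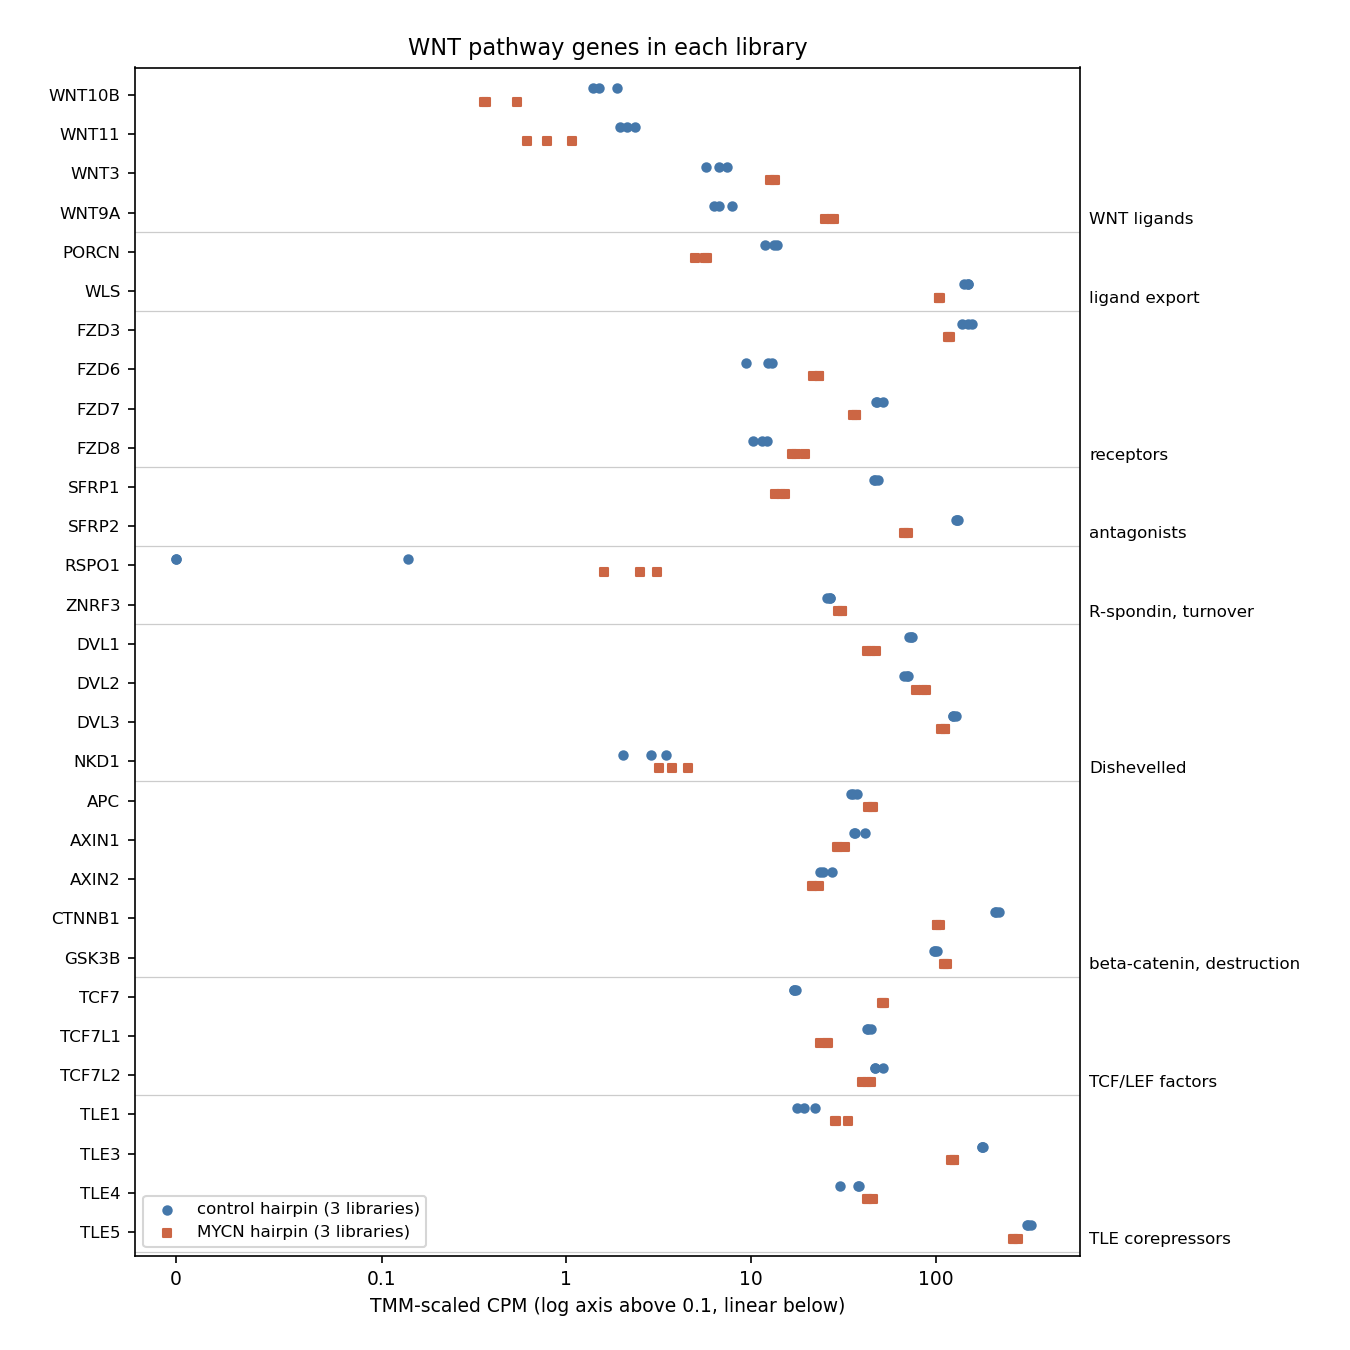
Level of named WNT pathway genes in each library, in TMM-scaled CPM on an axis that is logarithmic above 0.1 and linear below, with 1 circle per control library and 1 square per MYCN hairpin library. Replicates sit close together and the groups are apart for all genes shown except NKD1, whose ranges overlap. For RSPO1, 2 of the 3 control libraries lie at 0.

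The WNT ligands changed in make-up. WNT9A, WNT3 and WNT5A rose, while WNT10B, WNT11 and WNT3A fell. Of 17 ligands with a row of their own, 7 were tested, with 3 called higher, 3 lower and WNT2B not called. The share called was 42.9% in each direction, beside 38.0% of all tested genes called higher and 37.9% called lower. The summed level of all 17 was 25.4, 26.3 and 25.4 CPM in the control libraries and 48.7, 53.2 and 48.1 with the MYCN hairpin, a sum in which longer transcripts weigh more.

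WNT9A (chromosome 1, 227918656 to 227947898, minus strand, GRCh38), a ligand known from joint and liver development, measured 6.70, 7.87 and 6.31 CPM in control libraries and 26.9, 27.9 and 25.1 with the MYCN hairpin. The lowest MYCN hairpin library was more than 3 times the highest control. The fitted difference was 3.82-fold (log2 1.93, SE 0.092, edgeR adjusted p = 3.5e-22). WNT3 (chromosome 17, 46762506 to 46833154), a ligand of the β-catenin branch that sustains stem cells in the gut, stood at 6.70, 5.67 and 7.35 CPM and then at 12.6, 13.4 and 13.3. Each MYCN hairpin library was above each control, and the difference was 1.99-fold (log2 0.99, SE 0.11, edgeR adjusted p = 9.6e-11). WNT5A, the main ligand of the β-catenin-independent branch, was low but also higher, at 0.990 ± 0.263 CPM (SD, n = 3) and 2.37 ± 0.407 (log2 1.26, SE 0.25, edgeR adjusted p = 2.2e-05).

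WNT10B (chromosome 12, 48965340 to 48971763), an activator of the β-catenin branch, measured 1.51, 1.87 and 1.39 CPM in controls and 0.357, 0.543 and 0.366 with the MYCN hairpin. These were 71 counts in the controls and 21 in the MYCN hairpin libraries, and the ranges were apart (3.72-fold lower, log2 -1.89, SE 0.33, edgeR adjusted p = 1.9e-06). WNT11 (chromosome 11, 76186325 to 76210736), a ligand of cell movement and polarity, gave 2.36, 2.13 and 1.94 CPM and then 1.07, 0.784 and 0.610, again without overlap (log2 -1.37, SE 0.26, edgeR adjusted p = 1.1e-05). WNT3A, the classical β-catenin ligand, had 16, 11 and 11 counts in the controls and 1, 1 and 7 with the MYCN hairpin. All controls were above all MYCN hairpin libraries (log2 -2.19, SE 0.50, edgeR adjusted p = 1.6e-04), and without MYCN hairpin replicate 3 the log2 value was -3.66.

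WNT2B, a ligand of the ciliary margin of the eye, did not pass the threshold, at 5.65 ± 0.389 and 4.76 ± 1.2 CPM (SD, n = 3 each, log2 -0.24, edgeR adjusted p = 0.14). Replicate 2 of the MYCN hairpin, at 5.82 CPM, lay within the control range, and without it the adjusted p was 0.0267 and the log2 value -0.42. The counts of WNT2B were fractional in every library, and its exons share 2661 bases with ST7L on the opposite strand, so without strand the reads of the pair cannot be told apart. The other 10 ligands were too low to test. WNT4 had 3 counts in the controls and 23 with the MYCN hairpin, a ratio of 6.88 with an exact 95% interval of 2.08 to 35.8 that covers counting error only. WNT10A had 7 and 24 counts (ratio 3.08, 1.29 to 8.45), and the intervals of the other 8 include no difference.

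Per kilobase of transcript, a scale on which ligands can be compared, WNT9A went from 22.2 ± 2.2% of all ligand signal (SD, n = 3) to 49.5 ± 1.3%. WNT3 held 24.9 ± 3.7% and 28.8 ± 1.4%, and its ranges were 21.0 to 28.3% and 27.8 to 30.4%, which overlap. WNT2B went from 18.8 ± 0.96% to 9.16 ± 2.1%, WNT11 from 14.1 ± 1.3% to 3.14 ± 0.91% and WNT10B from 8.85 ± 1.2% to 1.36 ± 0.26%. WNT3, WNT9A and WNT2B were thus the 3 leading ligands of the controls, with the SDs of WNT3 and WNT9A overlapping, and WNT9A stood alone at the top with the MYCN hairpin. These shares do not depend on the scaling between libraries. With 3 libraries against 3, a two-sided exact permutation test of a share cannot go below p = 0.10, so no test of shares is given.

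**Figure D2:**
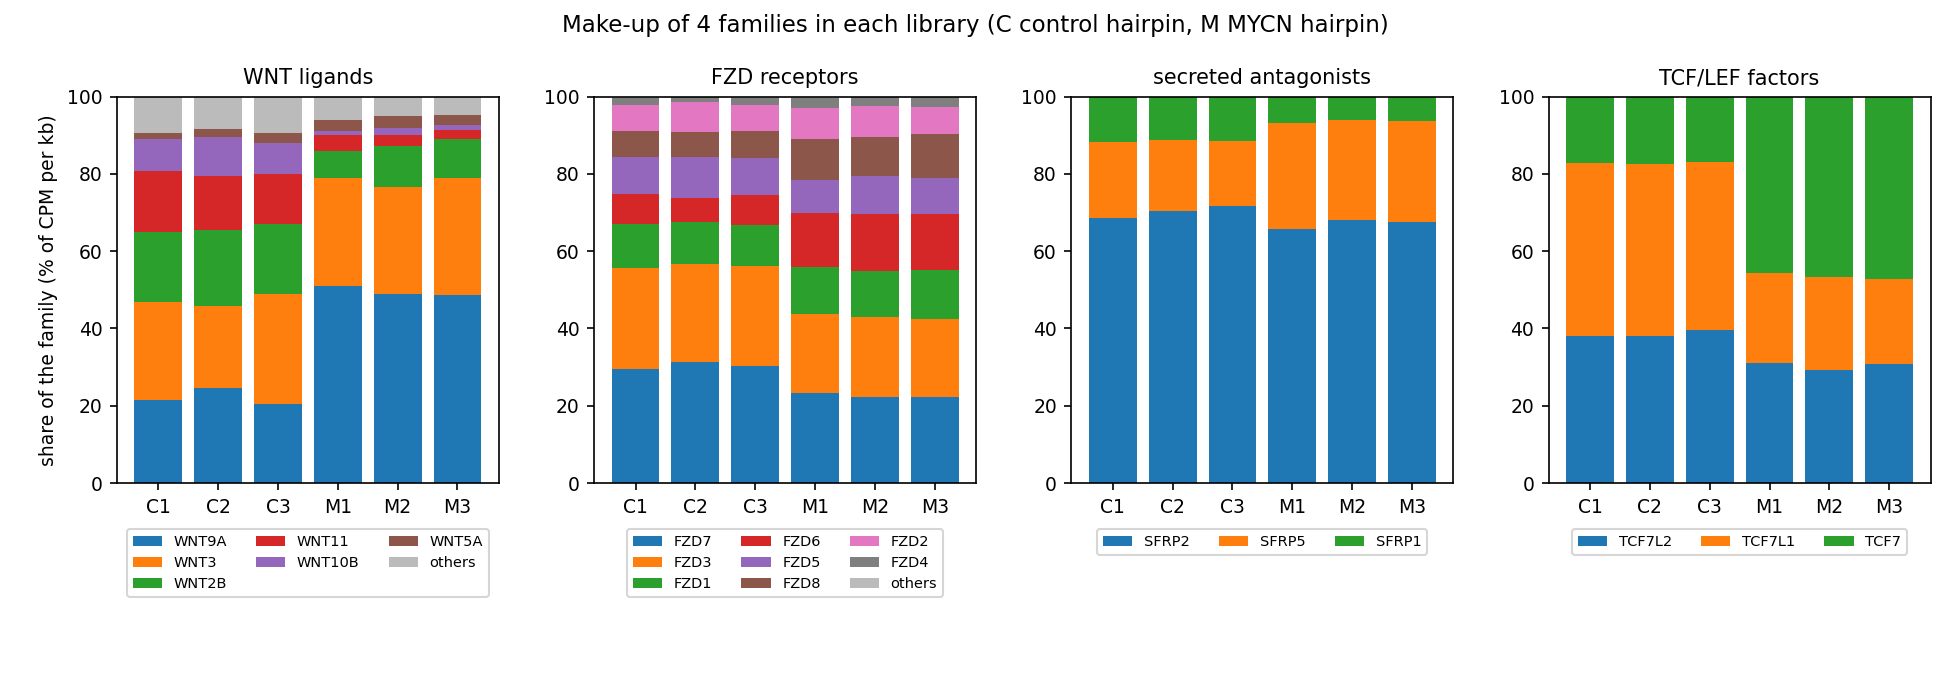
Make-up of the WNT ligands, FZD receptors, secreted antagonists and TCF/LEF factors in each library, as stacked shares in percent of CPM per kilobase of transcript, with control libraries C1 to C3 and MYCN hairpin libraries M1 to M3. The WNT9A share goes from 22.2% to 49.5% of ligand signal and the TCF7 share from 17.2% to 46.5% of TCF/LEF signal, on average over 3 libraries.

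The 2 genes that prepare ligands for export were both called lower, beside 37.9% of all tested genes. WLS (chromosome 1, 68098473 to 68233120), the carrier, measured 142, 149 and 148 CPM in control libraries and 103, 104 and 104 with the MYCN hairpin. The MYCN hairpin libraries lay close together and well under the controls (log2 -0.50, SE 0.042, edgeR adjusted p = 3.9e-14). PORCN (chromosome X, 48508962 to 48520814), the acyltransferase, measured 13.8, 13.3 and 11.9 CPM and then 4.94, 5.73 and 5.61. It fell 2.40-fold in libraries that do not overlap (log2 -1.26, SE 0.11, edgeR adjusted p = 2.6e-13). The summed ligand level was thus higher while both export genes were lower. That sum was carried by WNT9A (6.96 to 26.6 CPM on average) and WNT3 (6.57 to 13.1), and 3 of the 7 tested ligands were called lower.

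Among 11 receptors 10 were tested, with 4 called higher, 3 lower and 3 not called. The share called was 70.0%, beside 75.8% of all tested genes (38.0% higher and 37.9% lower). FZD6, FZD8, FZD4 and FZD1 were higher, and FZD7, FZD3 and LRP6 were lower. None of the 10 reached a 2-fold difference. FZD6, a polarity receptor of the β-catenin-independent branch, measured 12.3, 9.34 and 12.9 CPM in control libraries and 21.7, 23.3 and 23.4 with the MYCN hairpin (log2 0.99, SE 0.091, edgeR adjusted p = 6.8e-13). FZD8 (chromosome 10, 35638249 to 35642278), a receptor of the β-catenin branch, measured 11.4, 10.3 and 12.2 CPM and then 17.4, 16.7 and 19.5 (log2 0.66, SE 0.092, edgeR adjusted p = 2.6e-08). Both receptors were higher in each MYCN hairpin library than in any control.

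FZD7 (chromosome 2, 202034587 to 202038445), a receptor of progenitor and tumor cells, measured 47.3, 47.8 and 51.9 CPM in control libraries and 36.9, 35.6 and 36.7 with the MYCN hairpin (log2 -0.43, SE 0.057, edgeR adjusted p = 9.6e-09). FZD3, the receptor of axon guidance, measured 148, 138 and 157 CPM and then 115, 119 and 118 (log2 -0.33, SE 0.044, edgeR adjusted p = 1.1e-08). The groups did not overlap for either. Per kilobase these were the leading receptors of the FZD family in both groups, FZD7 at 12.7 and 9.43 CPM per kilobase and FZD3 at 10.7 and 8.55. The share of FZD7 in all FZD signal went from 30.4 ± 0.84% to 22.6 ± 0.63%, and that of FZD6 from 7.25 ± 0.89% to 14.4 ± 0.42% (SD, n = 3).

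FZD4, the receptor of the retinal vessel ligand Norrin, went from 5.15 ± 1.1 to 7.98 ± 0.48 CPM (log2 0.63, SE 0.13, edgeR adjusted p = 5.9e-05). It shares 1399 exonic bases with PRSS23 on the opposite strand, which was higher by a log2 value of 1.99, and without strand the reads of the pair could not be told apart. The counts of FZD4 were whole in every library. FZD1 was slightly higher (log2 0.16, edgeR adjusted p = 0.0151). Its adjusted p was 0.0594 with DESeq2, 0.0927 without control replicate 2 and 0.0948 without MYCN hairpin replicate 3. FZD2 (6.28 ± 0.38 and 6.69 ± 0.46 CPM) and FZD5 (27.6 ± 1.2 and 26.0 ± 2.2 CPM) did not pass, with edgeR adjusted p = 0.508 and 0.240. FZD10 was untested, with 16 and 14 counts.

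The coreceptors moved little. LRP5 measured 48.5 ± 1.2 CPM in the controls and 46.5 ± 2.0 with the MYCN hairpin (log2 -0.06, SE 0.055, edgeR adjusted p = 0.313). LRP6 was called lower at 77.0, 74.0 and 84.5 CPM against 66.9, 71.7 and 73.3, without overlap (log2 -0.15, SE 0.051, edgeR adjusted p = 0.00777). With library size scaling the log2 value of LRP6 was 0.03 and that of LRP5 0.12, and without control replicate 3 or MYCN hairpin replicate 1 the adjusted p of LRP6 was 0.067 or 0.0755.

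The 3 secreted antagonists with enough counts to test, all of the SFRP family, were lower. The SFRP proteins resemble the ligand-binding part of a Frizzled receptor and trap WNT outside the cell, whereas DKK proteins block LRP5 and LRP6. These were 3 of 6 members, and 37.9% of all tested genes were called lower. DKK4 had 1 count in all libraries together. SFRP1 measured 48.4, 46.5 and 46.2 CPM in control libraries and 15.2, 13.4 and 14.4 with the MYCN hairpin. It fell 3.28-fold with little spread between libraries (log2 -1.71, SE 0.068, edgeR adjusted p = 5.0e-25). SFRP2 (chromosome 4, 153780592 to 153789120) measured 128, 132 and 130 CPM and then 66.6, 68.2 and 70.5, again far from overlap (1.89-fold lower, log2 -0.92, SE 0.045, edgeR adjusted p = 5.9e-22). SFRP5 measured 30.6 ± 2.9 and 24.4 ± 0.80 CPM (SD, n = 3, log2 -0.33, SE 0.070, edgeR adjusted p = 5.8e-05), and its adjusted p was 0.0638 with library size scaling. Per kilobase SFRP2 was the leading antagonist in both groups, with 70.2 ± 1.6% and 67.1 ± 1.1% of their signal. The share of SFRP1 fell from 11.5 ± 0.26% to 6.36 ± 0.37% and that of SFRP5 rose from 18.3 ± 1.5% to 26.5 ± 0.77%.

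R-spondins enhance WNT signalling by removing RNF43 and ZNRF3, the membrane ubiquitin ligases that clear Frizzled receptors from the surface. RSPO1 (chromosome 1, 37611350 to 37634923) was nearly silent in controls, with 0, 0 and 2 counts, and had 27, 51 and 41 counts with the MYCN hairpin. In CPM this was at most 0.139 in a control and 1.61, 3.08 and 2.50 with the MYCN hairpin, so the gene became detectable but stayed low. The ratio of the counts, corrected for TMM-scaled depth, was 53.4 with an exact 95% interval of 14.5 to 446 for counting error only. The call of RSPO1 had edgeR adjusted p = 3.4e-12. Without control replicate 3, the only control with counts, the controls were at 0 and the adjusted p was 2.8e-10. RSPO2 had 1 and 7 counts and was not tested.

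ZNRF3 (chromosome 22, 28883592 to 29057487) was slightly higher, at 26.6, 26.6 and 25.6 CPM in control libraries and 29.6, 30.9 and 30.8 with the MYCN hairpin, without overlap (log2 0.21, SE 0.065, edgeR adjusted p = 0.00348). RNF43 was low and also higher, at 0.603 ± 0.10 and 1.19 ± 0.072 CPM (SD, n = 3, log2 0.96, SE 0.32, edgeR adjusted p = 0.00674, DESeq2 adjusted p = 0.0527). RNF43 shares 4326 exonic bases with the read-through gene AC004687.2 on the same strand, which has no value here, and 143 with SUPT4H1, also on the same strand, which had a log2 value of -0.50. The counts of RNF43 are therefore uncertain.

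**Figure D3:**
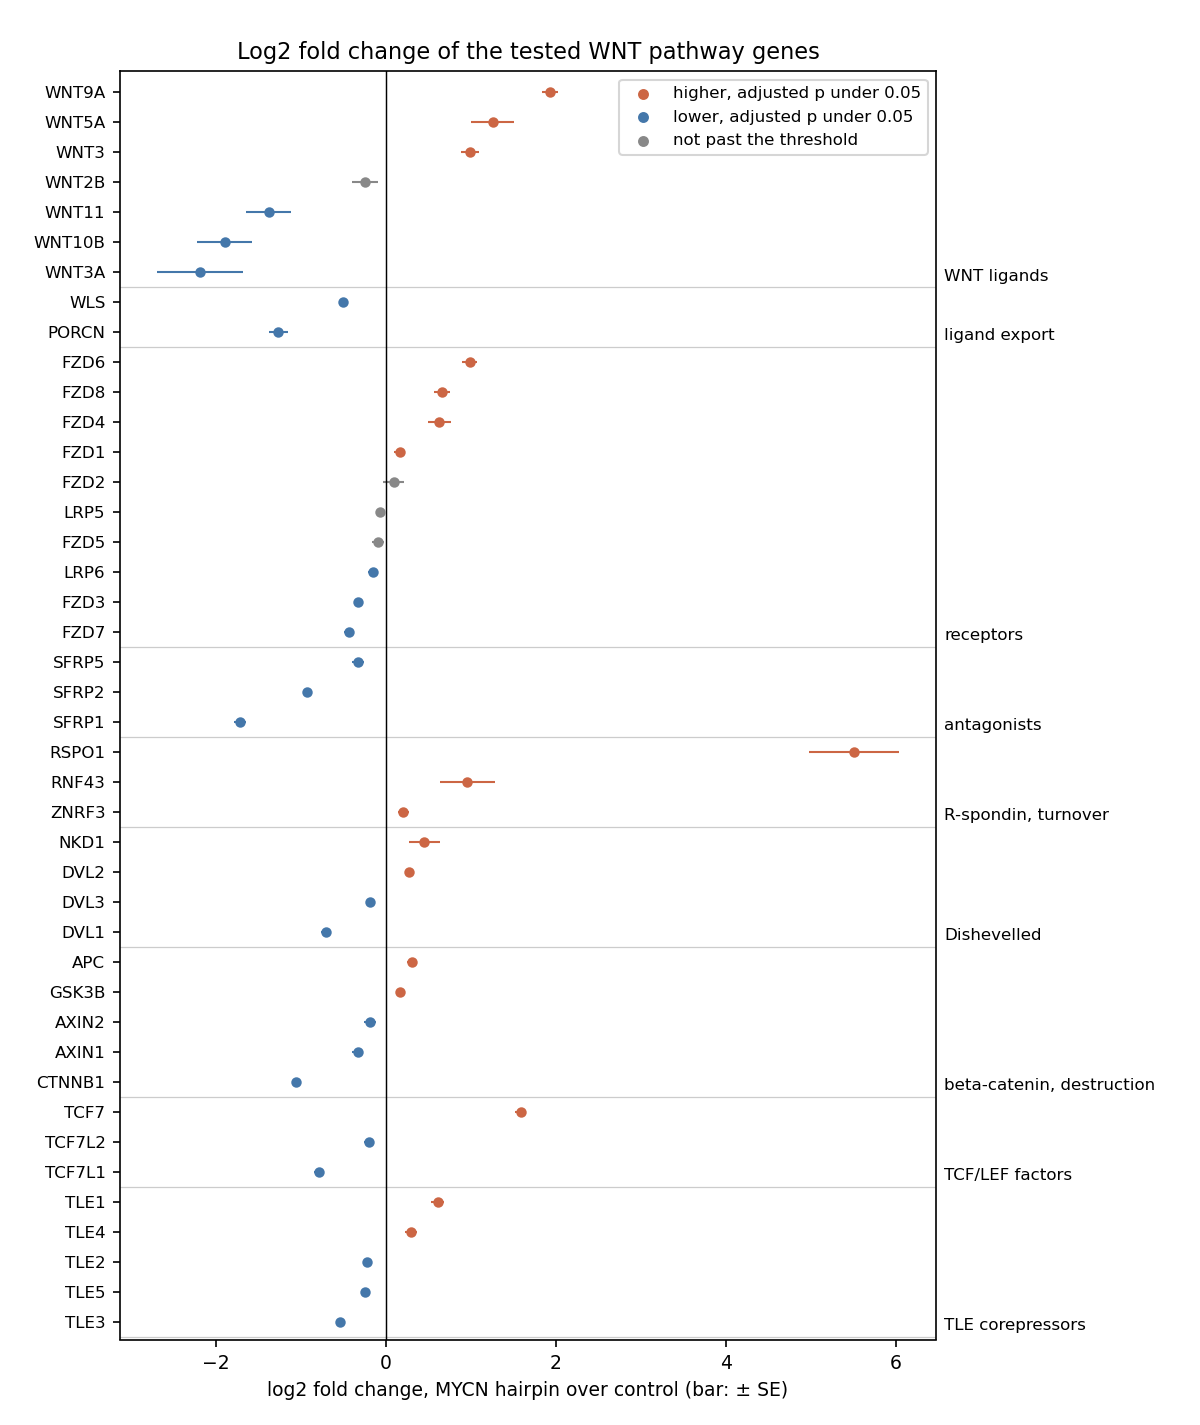
Log2 fold change of the 42 tested members, MYCN hairpin over control hairpin, grouped by role, with bars of 1 SE and colour showing the call at an adjusted p under 0.05. The export genes and the antagonists lie on the lower side and the R-spondin group on the higher side, while the other groups straddle 0. RSPO1, which has 2 counts in the controls, has the highest fitted value, 5.51.

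Dishevelled, the hub between receptor and destruction complex, shifted between paralogues. DVL1 (chromosome 1, 1335276 to 1349350) measured 73.7, 73.1 and 71.5 CPM in control libraries and 47.4, 44.3 and 42.5 with the MYCN hairpin. It fell 1.63-fold without overlap (log2 -0.70, SE 0.053, edgeR adjusted p = 1.2e-15). DVL2 (chromosome 17, 7225341 to 7234545) measured 70.8, 67.2 and 69.6 CPM and then 88.0, 84.5 and 78.3. It was higher in each MYCN hairpin library (log2 0.27, SE 0.050, edgeR adjusted p = 5.1e-06). DVL3 (chromosome 3, 184155311 to 184173614) measured 123.5, 127.4 and 122.8 CPM and then 112.0, 111.4 and 106.9 (log2 -0.18, SE 0.042, edgeR adjusted p = 2.5e-04), but its log2 value was 0.0039 with library size scaling. Per kilobase DVL1 led in the controls with 24.9 CPM, beside 23.3 for DVL3 and 22.9 for DVL2, and with the MYCN hairpin DVL2 led with 27.7, ahead of DVL3 at 20.6 and DVL1 at 15.3. This order depends on the transcript length chosen for each gene. In CPM, without division by length, DVL3 was highest in both groups, at 124.5 ± 2.5 and 110.1 ± 2.8 (SD, n = 3).

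NKD1, a Dishevelled-binding inhibitor that β-catenin itself induces in many tissues, was called higher from overlapping libraries. The gene stood at 2.04, 2.87 and 3.47 CPM in control libraries and 4.52, 3.74 and 3.17 with the MYCN hairpin, where replicate 3 lies below control replicate 3 (log2 0.46, SE 0.19, edgeR adjusted p = 0.0245). The adjusted p was 0.101 with DESeq2, 0.223 without control replicate 1 and 0.175 without MYCN hairpin replicate 1.

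CTNNB1, which encodes β-catenin, was among the most clearly lowered members. The gene (chromosome 3, 41194741 to 41260096) measured 211, 218 and 208 CPM in control libraries and 105, 101 and 101 with the MYCN hairpin. The groups were far apart beside their spread and the fall was 2.08-fold (log2 -1.06, SE 0.041, edgeR adjusted p = 2.0e-25). The log2 value was -0.87 with library size scaling, with an edgeR adjusted p of 4.2e-20. β-Catenin is controlled mainly through protein turnover, which these RNA data do not measure.

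The 4 genes of the destruction complex moved by less and in both directions. APC (chromosome 5, 112707498 to 112846239), the scaffold lost in familial polyposis, measured 37.4, 34.5 and 35.6 CPM in control libraries and 42.7, 45.2 and 45.5 with the MYCN hairpin (log2 0.31, SE 0.058, edgeR adjusted p = 6.6e-06). GSK3B (chromosome 3, 119821323 to 120094417), the kinase that marks β-catenin, measured 98.7, 97.5 and 101 CPM and then 114, 111 and 111 (log2 0.18, SE 0.043, edgeR adjusted p = 3.7e-04). Both were higher in all 3 MYCN hairpin libraries than in any control. APC shares 230 exonic bases and AXIN2 1316 with annotated genes on their own strand that have no value here.

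AXIN1 (chromosome 16, 287440 to 352673), the core scaffold, was lower at 41.4, 36.3 and 36.0 CPM against 32.25, 29.49 and 29.04 (log2 -0.32, SE 0.065, edgeR adjusted p = 2.1e-05), with an adjusted p of 0.0504 under library size scaling. AXIN2 (chromosome 17, 65528563 to 65561647), a scaffold that is also a widely used readout of β-catenin activity, measured 27.3, 23.6 and 24.4 CPM in control libraries and 23.2, 21.4 and 21.6 with the MYCN hairpin. The highest MYCN hairpin library was just under the lowest control, and the call was weak (log2 -0.19, SE 0.073, edgeR adjusted p = 0.0196). The log2 value of AXIN2 was -0.0048 with library size scaling (edgeR adjusted p = 0.956), and the call was also lost with upper quartile scaling (0.0646), with DESeq2 (0.0700) and without control replicate 1 (0.164), MYCN hairpin replicate 2 (0.0788) or MYCN hairpin replicate 3 (0.0623).

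The TCF/LEF factors exchanged their order. TCF7 (chromosome 5, 134114711 to 134151865), also called TCF1 and known from T cells and stem cells, measured 17.1, 17.1 and 17.4 CPM in control libraries and 52.3, 51.3 and 51.7 with the MYCN hairpin. Libraries of a group were nearly equal while the groups differed 3.01-fold (log2 1.59, SE 0.063, edgeR adjusted p = 6.0e-25). TCF7L1 (chromosome 2, 85133410 to 85310388), or TCF3, mostly a repressor, measured 42.9, 42.4 and 44.2 CPM and then 25.9, 25.7 and 23.6. It fell 1.72-fold without overlap (log2 -0.78, SE 0.062, edgeR adjusted p = 5.7e-15).

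TCF7L2 (chromosome 10, 112950250 to 113167678), or TCF4, the main β-catenin partner of the gut, measured 46.9, 46.5 and 51.6 CPM in control libraries and 44.5, 39.9 and 42.2 with the MYCN hairpin. The groups were apart by a small margin (log2 -0.20, SE 0.058, edgeR adjusted p = 0.00253), and the log2 value was -0.01 with an adjusted p of 0.838 under library size scaling. LEF1, which β-catenin often induces, was barely detected, with 3 counts in the controls and 5 with the MYCN hairpin, and was not tested.

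Per kilobase of transcript, TCF7 made up 17.3, 17.4 and 16.7% of TCF/LEF signal in the controls and 45.6, 46.8 and 47.1% with the MYCN hairpin. TCF7L1 went from 44.2 ± 0.59% to 23.1 ± 1.0% and TCF7L2 from 38.6 ± 0.91% to 30.3 ± 1.0% (SD, n = 3). TCF7 thus went from the lowest of the 3 to the highest, a change of order that does not depend on the scaling between libraries. The last exons of TCF7 share 210 bases with SKP1 on the opposite strand, which was more abundant than TCF7 and moved by a log2 value of -0.10. The counts of TCF7 were fractional in 3 of the 6 libraries. Without strand, reads in the shared bases could not be told apart.

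The Groucho corepressors, which bind TCF/LEF factors when β-catenin is absent, were called 2 higher and 3 lower of 5. Among all tested genes 38.0% were called higher and 37.9% lower. TLE3 (chromosome 15, 70047790 to 70098176) measured 180, 178 and 176 CPM in control libraries and 119.8, 125.2 and 124.2 with the MYCN hairpin (log2 -0.53, SE 0.040, edgeR adjusted p = 1.3e-15). TLE1 (chromosome 9, 81583683 to 81689305) measured 21.99, 19.3 and 17.7 CPM and then 28.2, 33.2 and 28.8 (log2 0.61, SE 0.077, edgeR adjusted p = 3.6e-09). The 2 full-length corepressors moved in opposite directions, each without overlap between groups.

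TLE4 (chromosome 9, 79571773 to 79726882) was higher at 37.6, 30.3 and 38.2 CPM against 45.7, 42.6 and 42.2 (log2 0.30, SE 0.067, edgeR adjusted p = 1.3e-04). TLE5 (chromosome 19, 3052910 to 3063107), a short family member also called AES that lacks the repeat domain of the others and can oppose them, was lower at 312, 325 and 315 CPM against 276, 265 and 261 (log2 -0.25, SE 0.039, edgeR adjusted p = 2.9e-07). TLE2 was lower by a small amount, at 55.7 ± 3.4 and 48.0 ± 1.7 CPM (SD, n = 3, log2 -0.22, SE 0.055, edgeR adjusted p = 6.1e-04). The groups did not overlap for these 3 genes, and with library size scaling the adjusted p of TLE5 was 0.106 and that of TLE2 0.592. Per kilobase TLE5 held 75.2 ± 0.74% and 74.2 ± 0.69% of the family signal, so its lead was kept.

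**Figure D4:**
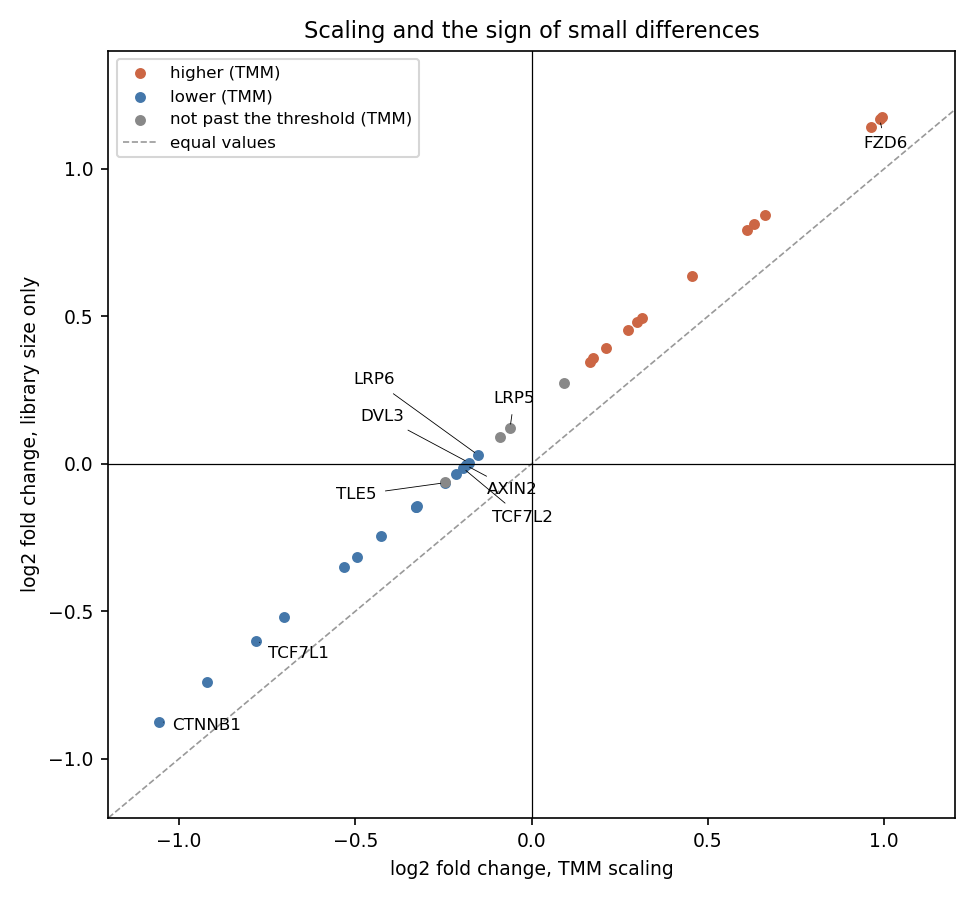
Log2 fold change of the members with smaller differences under TMM scaling (x axis) and with library size alone (y axis), coloured by the call under TMM scaling, with a dashed line of equal values. All points lie above the line, and LRP6 and DVL3, called lower under TMM scaling, lie just above 0 on the y axis at 0.03 and 0.0039.

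Other genes of the pathway, which the symbols above do not cover, were summarised from 4 lists. In the list of coreceptors and planar polarity genes 9 of 15 tested were called higher and 3 lower, a share called of 80.0% beside 75.8% of all tested genes (38.0% higher and 37.9% lower), with a median log2 fold change of 0.36 beside 0.005 for all tested genes. ANKRD6 (Diversin), which links Dishevelled to polarity, rose from 17.9, 18.2 and 17.1 CPM to 107, 112 and 107 (log2 2.61, SE 0.058, edgeR adjusted p = 8.4e-34). The counts of ANKRD6 were fractional in every library. Its span overlaps LYRM2 on the opposite strand, and the exonic bases they share were not counted. VANGL1, a core polarity membrane protein, went from 2.89, 3.27 and 2.29 CPM to 14.2, 14.7 and 14.5 (log2 2.36, edgeR adjusted p = 3.2e-20), whereas its paralogue VANGL2 fell from 175, 178 and 186 CPM to 117, 116 and 105 (log2 -0.68, edgeR adjusted p = 7.0e-18). The 2 VANGL genes thus moved in opposite directions, each without overlap between groups. PRICKLE2 rose (log2 1.34) while its paralogue PRICKLE3 (-1.27) and the polarity cadherin CELSR2 (-0.38) fell. The counts of PRICKLE3 were also fractional in every library. With library size scaling 12 were called higher and 3 lower.

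Among other extracellular regulators 5 of 11 tested were called higher and 3 lower (7 and 3 with library size scaling), a share called of 72.7% beside 75.8% of all tested genes, with a median of 0.14. SERPINF1, which encodes the eye factor PEDF, fell from 463, 458 and 428 CPM to 151, 145 and 151 (log2 -1.59, SE 0.041, edgeR adjusted p = 1.2e-31). The DKK receptors KREMEN2 (log2 -1.30) and KREMEN1 (-0.33) were lower. CPE, a peptidase also described as a WNT inhibitor, rose from 113, 103 and 102 CPM to 228, 219 and 229 (log2 1.08, edgeR adjusted p = 4.4e-25). RECK, a WNT7 coreceptor, was higher (log2 1.08), and the DKK relative DKK3 had 9 counts in the controls and 158 with the MYCN hairpin (log2 3.93, SE 0.33, edgeR adjusted p = 4.9e-14).

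Regulators of β-catenin turnover and its nuclear cofactors were called at close to the rate of all tested genes, with 11 of 34 tested higher (32.4% beside 38.0%), 13 lower (38.2% beside 37.9%) and a median of 0.00. With library size scaling 19 were called higher and 8 lower. The β-catenin cofactor PYGO1 (log2 1.29), the β-catenin inhibitor CTNNBIP1 (0.79) and TNKS, which marks AXIN for removal (0.64), were higher. CSNK1E, a kinase acting on Dishevelled (log2 -0.54), FRAT2, a GSK3 binding protein (-0.69), and CSNK1G1, a casein kinase of the type that acts on LRP6 (-0.46), were lower. The counts of CSNK1E were fractional in every library.

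Genes known as β-catenin targets in other tissues were called in both directions, with 9 of 18 tested higher, 6 lower and a median of 0.30. The share called was 83.3%, beside 75.8% of all tested genes (38.0% higher and 37.9% lower). CCND1, the G1 cyclin, measured 50.9, 49.5 and 52.7 CPM in control libraries and 8.81, 11.7 and 11.5 with the MYCN hairpin (log2 -2.26, SE 0.076, edgeR adjusted p = 2.3e-27). CCND2, another G1 cyclin (log2 -0.79), and APCDD1, a feedback inhibitor that β-catenin induces (-0.77), also fell. JUN, a subunit of the AP-1 factor, measured 25.7, 26.5 and 30.0 CPM and then 122.9, 135.4 and 140.4 (log2 2.28, SE 0.059, edgeR adjusted p = 8.7e-31), and TIAM1 (1.504) and TNFRSF19 (0.97) were also higher. MYC had the highest log2 value of the list, 2.99 (SE 0.30, edgeR adjusted p = 6.2e-12), but was low. It had 17 counts in the controls and 153 with the MYCN hairpin. Many inputs other than β-catenin act on these genes.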

How the data were processed

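The authors deposited 1 table of estimated counts, with genes in rows and libraries in columns and no scaling between libraries. Per the submitters' processing notes, the genome build was GRCh38. Which aligner, counter, strand setting and annotation release were used is not given in the sources used here. The table has 17035 rows, of which 22 were empty and not used. Between 12.5% and 12.8% of values were not whole. Among members this held for 5 genes.

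Counts were rounded. Genes that passed filterByExpr (minimum of 10 counts) were tested with edgeR 4.0.16 (robust quasi-likelihood F-test, TMM factors 0.930 to 1.070) in R 4.3.3, with Benjamini-Hochberg adjustment over 12819 genes. SEs came from the F statistic. Alternatives were DESeq2 1.42.0, limma-voom 3.58.1, scaling by RLE, by upper quartile or by library size, omitting the filter, requiring 1 CPM in 3 libraries, a replicate block and each library left out. Positions and overlaps came from GENCODE 29, and lengths from 1 protein-coding transcript per gene. All 58 members matched, TLE5 under its older symbol AES. Ratio intervals are exact 95% intervals for counting error only.

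Members and lists were chosen with earlier results of these data known. Named genes are the 2 with the smallest p in each direction per role group, or 3 per list, plus CTNNB1, AXIN2, LEF1, the TCF7 family and MYCN. MYC was named outside this rule, for the highest log2 value of its list. Other members were named to account for all of them. No 2 replicates held identical values (chi-square per degree of freedom 1.73 to 4.23). On simulated data with 200 of 12714 genes changed, the fit recovered 59.7%, 91.0% and 97.0% of those altered 1.2-fold, 1.5-fold and 2-fold. It called 8 unaltered genes. In the deposited data 75.8% of tested genes were called, and the performance of the fit with that many genes altered was not tested.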

Additional observations from a re-analysis of the deposited data

How the results depend on the processing

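Single-gene calls were compared for the 81 tested members, named genes and markers, without MYC. RLE scaling and limma-voom changed none of these, nor did removing the count filter, which put 56 members to the test with 19 called higher and 21 lower. Without the filter the turnover list had 10 called higher in place of 11. Library size scaling, which ignores that MYCN hairpin libraries had TMM factors of 1.059 to 1.070 and controls 0.930 to 0.948, called 19 members higher and 13 lower, and in the list of β-catenin turnover genes and cofactors 19 higher and 8 lower. It reversed LRP5 (log2 0.12), LRP6 (0.03) and DVL3 (0.0039). DESeq2 called 14 members higher and 20 lower. Leaving out 1 library at a time gave 16 to 17 members called higher and 20 to 21 lower. The fit with the replicate number as a block called 17 members higher and 21 lower and changed none of the 81 calls, but it called 7 listed targets lower in place of 6. Same-numbered libraries of the groups deviated together only in part (r = 0.106, 0.000 and 0.161 over 10037 genes). Control replicates 1 and 3 correlated best with their own number and control replicate 2 with MYCN hairpin replicate 1 (r = 0.076). Whether same-numbered libraries were prepared together cannot be told from these values. Shares computed without division by transcript length, an alternative chosen after the data were seen, moved by 27.7 percentage points for TCF7, 4.46 for FZD6, -3.44 for FZD7 and -9.33 for SFRP1, in place of 29.3, 7.15, -7.83 and -5.16. Depth limits the untested members: with 15490263 to 16078416 counts per library, a gene such as LEF1 at 3 and 5 counts can show only differences of many fold.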
